A study of Danio rerio with 60 samples.

Results

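Gene expression was compared between zebrafish larvae kept in 405 µM resorcinol and larvae kept in its carrier alone. The comparison used 10 of the 60 samples of the study, 5 at 405 µM and 5 carrier controls, and covered all 27488 genes of the deposited resorcinol table. The spread behind its p-values was estimated over all 30 resorcinol samples. The samples were chosen by their descriptions, and each 405 µM sample was paired with the control sample of the same replicate number. Resorcinol is a small phenol that is known to interfere with thyroid hormone synthesis.

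The study exposed larvae to raloxifene or to resorcinol in dilution series and asked how serial dilutions differ from the vehicle control and at which dose expression departs from it. Every sample used here was total RNA from a pool of 20 whole larvae of the AB/Tub background, exposed from 72 to 120 hours post-fertilization in HEPES-buffered E3 medium in sealed plates and then frozen. The control group received 1% of a carrier that the labels do not name, and the other resorcinol groups received 40.5, 4.05, 0.405 or 0.0405 µM, with 5 pools each. Titles and treatment labels of every dosed resorcinol pool abbreviate raloxifene instead, so the groups were set by the descriptions, which name resorcinol and the dilution and mark the 405 µM dose as EC20 without saying of which effect. Since whole larvae were pooled, fewer cells of a type and less RNA per cell cannot be told apart.

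Thyroid hormone acts in cells through nuclear receptors, and deiodinases raise or lower the amount of active hormone in a tissue. Zebrafish cones each make 1 class of opsin, the light-sensing protein, and light then runs through transducin, a phosphodiesterase and cyclic nucleotide-gated channels. Guanylate cyclases, switched by small calcium-binding guanylate cyclase-activating proteins, restore the cyclic nucleotide. Heme oxygenase and peroxiredoxins belong to the general defence against oxidants and reactive chemicals. In zebrafish, thyroid hormone receptor beta is needed for red cones, and the transcription factor six7 for expression of the green cone opsins.

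The values are normalized counts, which are reads per gene divided by 1 factor per library. Control libraries held 7921670 to 9146189 reads, and 405 µM libraries 8983891 to 12127309, except replicate 1 with 30737132. Over all 30 resorcinol libraries and the genes tested, replicate number accounted for 69.1% of the variance and the 6 groups for 6.83%. Each of the 5 libraries at 405 µM deviated from its group mean most like the control library of the same number, with correlations of 0.553 to 0.791. The 40.5 and 4.05 µM libraries of replicate 3 stood apart from their groups. Taken over the genes called lower at 405 µM and measured from the same-number control, the median log2 change of the 40.5 µM libraries was -0.15 for replicate 3 and -1.14 to -0.78 for the rest. At 4.05 µM it was -0.74 for replicate 3 and -0.32 to -0.00081 for the rest.

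At 405 µM, 64 of the 19583 genes tested passed an adjusted p of 0.05, which is 0.327% of them. The falls included a green cone opsin, 3 guanylate cyclase activators, a clock-output repressor and a thyroid hormone receptor, and the rises heme oxygenase, a peroxiredoxin, cone signalling genes and digestive enzymes. A total of 34 genes (0.174%) were higher and 30 (0.153%) lower, by limma with an intensity trend, the replicate number as a block and Benjamini-Hochberg adjustment over all genes tested. Level filter and spread came from all 30 resorcinol libraries, the lower doses included. With only the 2 groups compared in the fit, 141 of the 19583 genes were called, with 51 of the 64 among them. Fitted log2 changes ran from 0.36 to 2.06 among the higher genes, median 0.70, and from -3.03 to -0.40 among the lower ones, median -1.04. All 5 pairs were higher for 34 of the 34 higher genes, and all 5 were lower for 29 of the 30 lower genes. The exception, fabp4b, was lower in 4. The same pair values made the calls, so this agreement is no separate support for them.

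The lower genes were the better separated. Control and 405 µM libraries did not overlap for 16 of the 30 lower genes and for 6 of the 34 higher ones. Over all genes tested, 31 (0.158%) lay without overlap below their controls and 32 (0.163%) above. Without the replicate block 6 genes (0.0306%) passed, all among the 64, and 302 had an unadjusted p under 0.05, against 2109 with it. The 6 were opn1mw2, GUCA1A ENSDARG00000100747, guca1d, nfil3-6, FHL2 ENSDARG00000003991 and si:dkey-61n16.5. The fit without the block keeps the replicate differences in its spread, with a median SE of 0.277 against 0.154 with the block. Its 302 genes are fewer than an unadjusted p of 0.05 gives by chance, so it is a strict test. edgeR and DESeq2 on the recovered reads, with the block, called 84 (0.429%) and 128 (0.654%), and each called 63 of the 64. Counts moved with single libraries: 25 genes were called without control replicate 1, 39 without control replicate 3, and 19, 30 and 29 without 405 µM replicates 1, 2 and 4. Without replicate numbers 1, 2 and 5 in every group, 11, 13 and 27 were called. In each fit without 1 of the 10 libraries or without 1 of the 5 numbers, opn1mw2, GUCA1A ENSDARG00000100747, THRA ENSDARG00000000151, HMOX1, gch2, ano2b, si:ch211-276a17.5 and si:dkey-61n16.5 kept their calls. These fits held the replicate block. Without it, THRA ENSDARG00000000151, HMOX1, gch2, ano2b and si:ch211-276a17.5 were not called (limma, adjusted p = 0.0931, 0.0904, 0.721, 0.497 and 0.0904).

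**Figure D1:**
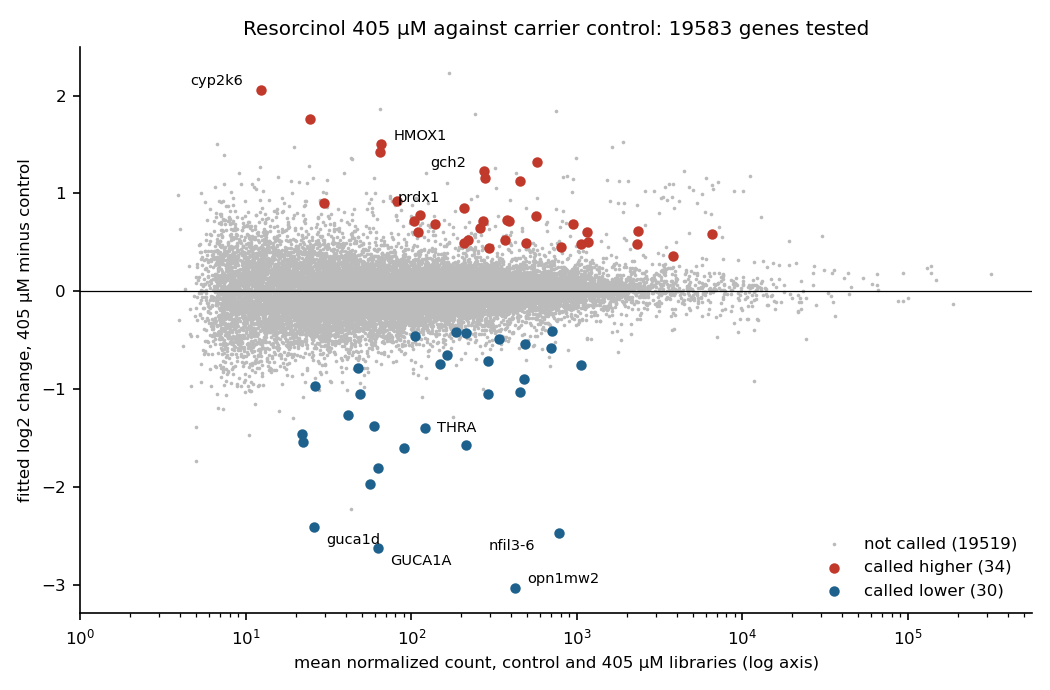
Fitted log2 change at 405 µM against the control (vertical axis) by the mean normalized count over the control and 405 µM libraries (horizontal log axis), 1 point per gene. The 30 genes called lower reach -3.03 and the 34 called higher reach 2.06, around a median of 0.0011 over all 19583 genes tested.

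The opsin opn1mw2, a green-sensitive cone pigment, fell the furthest. Its normalized counts were 689, 634, 521, 1303 and 603 in control replicates 1 to 5 and 76.0, 84.9, 63.5, 135 and 85.5 at 405 µM. The highest 405 µM library lay well under the lowest control. The fitted log2 change was -3.03 (SE 0.48), an 8.15-fold fall (limma, adjusted p = 0.00216).

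Of the 12 opsin genes of the list that are in the table, 8 were tested. The 1 called in the paired limma fit was opn1mw2 (12.5%, against 0.327% of all genes tested). The red opsin opn1lw2 went from 2201 ± 1023 to 1510.0 ± 472 (SD, n = 5), lower in 5 of 5 pairs, at a log2 change of -0.50 (SE 0.14, limma adjusted p = 0.151). At 40.5 µM opn1lw2 was called, at -0.71 (limma, adjusted p = 0.0358). The ultraviolet opsin OPN1SW was higher in 5 of 5 pairs, at 0.57 (SE 0.15, limma adjusted p = 0.122), with an adjusted p of 0.0299 in DESeq2 and 0.0938 in edgeR. The green opsin opn1mw1 changed by 0.34 (SE 0.13) and the blue opsin opn1sw2 by 0.05 (SE 0.13), and neither was called. For opn1sw2, the sign turned without control replicate 1, control replicate 3, 405 µM replicate 4 or the libraries of number 1. The opsin genes opn1mw3, opn1mw4 and opn1lw1 were under the level filter, with control means of 2.65, 0.212 and 4.12. The division of reads between duplicated genes of similar sequence is uncertain, for opsins and for the families below.

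Guanylate cyclase activators moved in both directions. GUCA1A ENSDARG00000100747, whose human namesake encodes guanylate cyclase activator 1A, had 129, 138, 94.2, 122 and 61.0 normalized counts in controls and 13.2, 22.1, 13.0, 18.5 and 15.5 at 405 µM. All 5 treated libraries were under every control, a 6.16-fold fall (limma, adjusted p = 2.67e-04). The gene guca1d fell from 42.3, 55.9, 60.3, 37.0 and 24.4 to 5.20, 9.73, 6.88, 11.8 and 4.12, with no overlap and a 5.31-fold fall (adjusted p = 0.0026). The gene guca1g had 116, 130, 115, 267 and 65.0 in controls and 40.8, 26.5, 48.2, 63.1 and 33.0 at 405 µM, a 3.03-fold fall (adjusted p = 0.0123) whose call was lost without 405 µM replicate 1 or 2. Its groups also did not overlap.

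The GUCA1A gene ENSDARG00000101567 went the other way. It had 31.1, 35.8, 45.5, 50.1 and 12.2 in controls and 98.4, 68.1, 90.2, 167 and 47.4 at 405 µM, higher in every pair although the groups overlapped. The rise was 2.68-fold (limma, adjusted p = 0.0297), and the call was kept in 4 of the 10 fits without 1 library, being lost without control replicates 1 or 5 or 405 µM replicates 1 to 4. The other family members were not called: GUCA1B changed by -0.26 (SE 0.23), guca1c by 0.25 (SE 0.13) and guca1aa by 0.36 (SE 0.24). None of the 3 cyclases gc2, gucy2f and gucy2d was called. In all, 4 of the 10 genes of the cyclase and activator list passed (40%), against 0.327% of all genes tested. The list was chosen with earlier results of these data known.

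**Figure D2:**
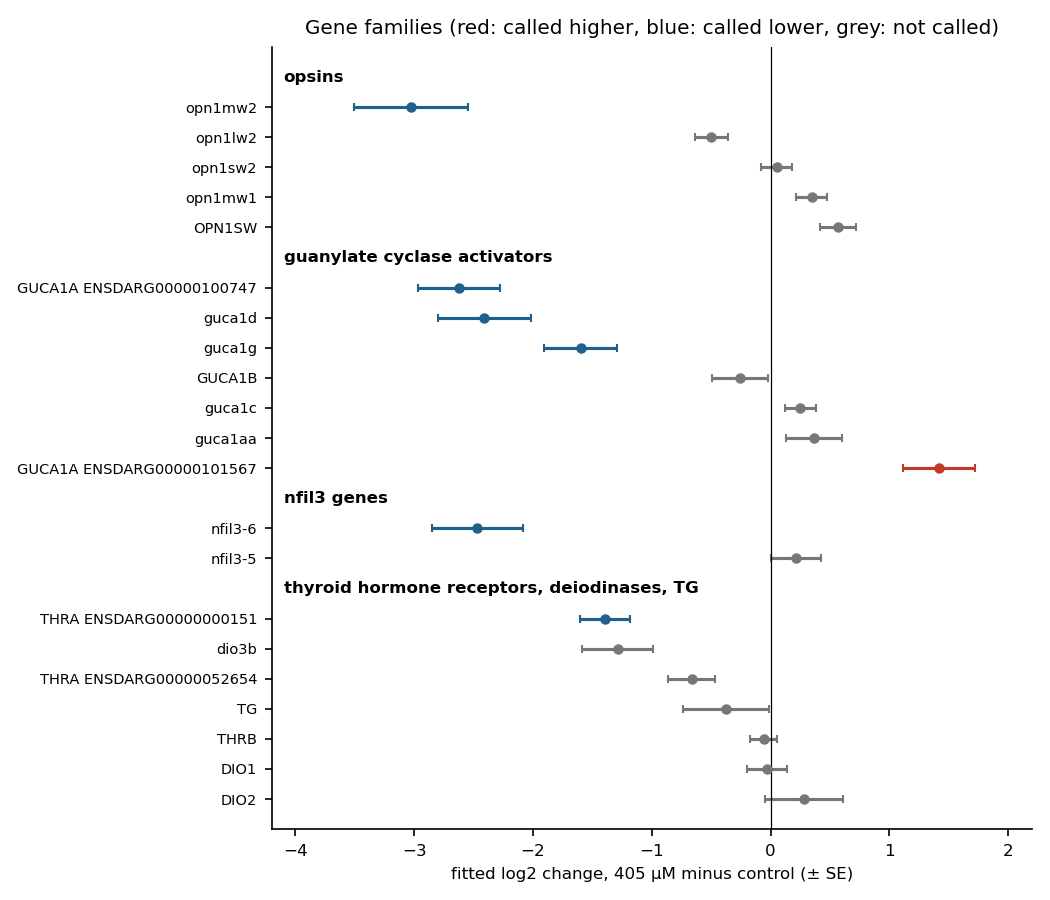
Fitted log2 change at 405 µM against the control (horizontal axis, ± SE) for tested members of 4 gene families, with called genes in colour. In the opsin family opn1mw2 stands at -3.03 and the other genes plotted between -0.50 and 0.57, and the 2 called GUCA1A genes lie at -2.62 and 1.42.

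Further genes of the photoreceptor pathway were higher, by smaller folds. Of 41 tested genes of the phototransduction list, 3 (7.32%) rose and 0 fell in the paired fit, against 0.327% of all genes called. The median log2 change was 0.10, and 0.03 without the libraries of number 1. The medians of pairs 1 to 5 were 0.35, 0.08, 0.04, -0.04 and -0.01. At an unadjusted p under 0.05, 8 genes were higher and 5 lower. Over all genes tested, 5.64% were higher and 5.13% lower at that level. CNGA3 ENSDARG00000012297, a subunit of the cone cyclic nucleotide-gated channel, had 61.0, 44.3, 60.3, 73.9 and 31.5 in controls and 184, 97.3, 94.1, 121 and 47.4 at 405 µM. GRK7 ENSDARG00000055534, a cone opsin kinase, had 103, 71.7, 70.9, 103 and 52.9 in controls and 234, 121, 94.1, 194 and 82.5 at 405 µM. Both groups overlapped while every pair was higher, and replicate 1 held the highest treated value of each. The rises were 1.90-fold and 1.71-fold (limma, adjusted p = 0.0219 and 0.0217), and each call was kept in 4 of 10 fits without 1 library. The third gene was gnb3b, a beta subunit of transducin, at 1.5-fold (adjusted p = 0.0197), a call also kept in 4 of 10 fits. PDC ENSDARG00000017634, phosducin, which binds transducin subunits and was in no list, rose 1.53-fold (adjusted p = 0.0088).

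Paralogs of CNGA3 and GRK7 had values below 0. The other CNGA3 gene, ENSDARG00000070726, changed by -0.59 on the log2 scale and GRK7 ENSDARG00000020602 by -0.13, neither of them called. The lowest values of the list were those of KCNV2 ENSDARG00000062906, a modifier of photoreceptor potassium channels, and of pde6ha, an inhibitory subunit of the cone phosphodiesterase; both were singled out after their values were seen. KCNV2 ENSDARG00000062906 had 66.0, 71.7, 49.7, 131 and 44.7 in controls and 13.2, 9.73, 14.5, 20.2 and 12.4 at 405 µM. Its groups did not overlap, the log2 change was -2.22 (SE 0.51), and its adjusted p of 0.0535 lay just outside the threshold in limma and at 0.0127 in edgeR. At 40.5 µM it was called (log2 change -2.74, limma adjusted p = 0.0308). Without the 40.5 and 4.05 µM libraries of replicate 3 its limma adjusted p at 405 µM was 1.30e-07. Those libraries were singled out by genes called lower at 405 µM, so this p-value is no separate support. The other KCNV2 gene, ENSDARG00000076644, changed by 0.36 (SE 0.19), higher in 5 of 5 pairs and not called (limma, adjusted p = 0.508). For pde6ha the change was -0.92 (SE 0.22, limma adjusted p = 0.0739).

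The visual cycle, which regenerates the chromophore, gave 1 call among 29 tested genes (3.45%, against 0.327% of all genes tested). RDH8 ENSDARG00000099217, whose human namesake is a retinol dehydrogenase of photoreceptors, had 0, 14.8, 18, 15.5 and 20.3 in controls and 19.2, 36.3, 38.2, 50.5 and 29.9 at 405 µM. Pair 1, with its control at 0, held the largest change. The fitted rise was 3.39-fold (limma, adjusted p = 0.0217), and the log2 change was 1.12 with the libraries of number 1 left out, where the call was lost. Among 30 tested transcription factors of the retina, 1 was called higher and 1 lower (6.67%, against 0.327% of all genes tested). The median log2 change of the list was -0.04, and 12 genes lay above 0. The gene six7 rose 1.61-fold, from 728 ± 293 to 1173 ± 391 (limma, adjusted p = 0.0217). The retinal homeobox gene rx1 fell 1.69-fold, from 1307 ± 740 to 805 ± 576 (adjusted p = 0.0271). Both calls were kept in 3 of 10 fits without 1 library.

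The genes cabp2a, cabp5a and cabp5b, which encode calcium-binding proteins related to calmodulin, rose 1.65-, 1.65- and 1.41-fold (limma, adjusted p = 0.0126, 0.00932 and 0.0123). Pools of whole larvae do not show in which tissue the genes of this paragraph changed. Other genes of the cabp family were not called, among them CABP4 ENSDARG00000105631 at a log2 change of 0.49 and cabp2b at -0.52. The glutamate transporter slc1a8b rose 1.65-fold (adjusted p = 0.0123). The calcium-activated chloride channel gene ano2b had 510.2, 348, 385, 515 and 230 in controls and 197, 199.97, 184, 183 and 159 at 405 µM, with no overlap, and fell 2.07-fold (adjusted p = 0.00264). The gene ankrd33ab, whose mouse relative represses transcription in photoreceptors, fell 2.4-fold without overlap (adjusted p = 0.0439), a call kept in 2 of 10 fits.

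The cone marker sum ran from 37835 to 78859 in controls and from 37325 to 73159 at 405 µM, and the rod marker sum from 10342 to 32593 and from 9563 to 23477. The cone sum was higher in 3 of 5 pairs, at ratios of 0.928 to 1.62 to the control. The rod sum was lower in 4 of 5, at ratios of 0.720 to 1.33. The median log2 change of the cone markers was 0.14, and 0.04 without the libraries of number 1. The bipolar cell marker sum was higher in 5 of 5 pairs, at ratios of 1.01 to 1.47; its 4 tested genes include cabp5b, and the other 3 had log2 changes below 0 and no call. The pigment epithelium marker sum was lower in 4 of 5, at a lowest ratio of 0.626. Among the 7 tested cone markers 0 were called, while 3 were higher and 1 lower at an unadjusted p under 0.05. Over all genes tested, 5.64% were higher and 5.13% lower at that level. Among the 7 tested rod markers 0 were called and 0 had an unadjusted p under 0.05. Their part in the results on single photoreceptor genes was not tested.

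THRA ENSDARG00000000151, which encodes a nuclear receptor for thyroid hormone, was lower in 5 of 5 pairs. It had 220, 177, 153, 210 and 113 normalized counts in controls and 92.4, 56.6, 52.8, 69.9 and 55.7 at 405 µM. The groups did not overlap, and the fall was 2.63-fold (limma, log2 change -1.39, SE 0.21, adjusted p = 0.00119). The other THRA gene, ENSDARG00000052654, was lower in 5 of 5 pairs at -0.66 (SE 0.20) but was not called (adjusted p = 0.184). THRB, the receptor beta gene, had 1664 ± 915 in controls and 1615 ± 968 at 405 µM, a change of -0.06 (SE 0.11).

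Of the deiodinases, dio3b, which inactivates thyroid hormone, had 357, 260, 219, 204 and 215 in controls and 120.0, 118, 83.4, 61.5 and 138 at 405 µM. The groups did not overlap and the log2 change was -1.29 (SE 0.30), with an adjusted p of 0.0586 in limma, 0.0341 in edgeR and 0.0212 in DESeq2. DIO1 and DIO2, deiodinases that can activate the hormone, changed by -0.03 (SE 0.17) and 0.28 (SE 0.33), and TG, thyroglobulin, by -0.38 (SE 0.36) from a level of 13.0 ± 8.34. TSHB, the pituitary thyrotropin subunit, was under the level filter with a control mean of 3.87. In all, 19 of the 30 thyroid axis genes in the table were tested. Of these 1 was called lower and 0 higher (5.26%, against 0.327% of all genes tested).

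The repressor nfil3-6, of a family of leucine zipper factors that act in clock output, fell 5.53-fold. It had 1363, 1783, 1309, 1494 and 662 normalized counts in controls and 106, 325, 275, 287 and 219.5 at 405 µM. The groups did not overlap, and replicate 1 had the lowest treated value (limma, log2 change -2.47, SE 0.38, adjusted p = 0.00191). The call was kept in all 10 fits without 1 library and was lost without the libraries of number 1 (adjusted p = 0.0532). Of its relatives, nfil3-5 changed by 0.21 (SE 0.21), and NFIL3, nfil3-3 and nfil3-4 were under the level filter. The gene nfil3-6 was the 1 call among the 45 tested clock genes (2.22%, against 0.327% of all genes tested). The median log2 change of this list was -0.01.

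The heme oxygenase gene HMOX1, which opens the heme ring, was called in the paired fit and had an adjusted p of 0.0904 without the replicate block (limma). It had 27.4, 36.9, 37.0, 22.7 and 46.8 in controls and 79.6, 98.2, 96.4, 79.1 and 134 at 405 µM. The lowest treated library lay above the highest control, a 2.83-fold rise (limma, log2 change 1.5, SE 0.18, adjusted p = 1.20e-04). The peroxiredoxin prdx1 ENSDARG00000058734, a peroxide-reducing enzyme, had 141, 124, 155, 129 and 192 in controls and 212, 292, 268, 233 and 335 at 405 µM. It rose 1.81-fold without overlap (adjusted p = 0.00932).

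These were the 2 calls among the 35 tested genes of the oxidative stress list (5.71%, against 0.327% of all genes tested). The median log2 change of the list was 0.11, with 26 genes above 0. Further members of the list were not called: on the log2 scale GCLM changed by -0.23, NQO1 by -0.06, GCLC by 0.03, TXN by 0.14 and slc7a11 by 0.18. SRXN1 was under the level filter. The summed level of the list was higher in 5 of 5 pairs, at ratios of 1.04 to 1.16. Lists with 0 calls were also higher in 5 of 5 pairs. These were ionocytes and kidney, at ratios of 1.02 to 1.11, and red blood cells, at 1.02 to 1.19. Heat shock and endoplasmic reticulum stress lists, with 36 and 34 genes tested, held 0 calls. At an unadjusted p under 0.05, 4 heat shock genes were higher and 0 lower, and 3 endoplasmic reticulum genes were higher and 2 lower, against 5.64% and 5.13% of all genes tested.

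**Figure D3:**
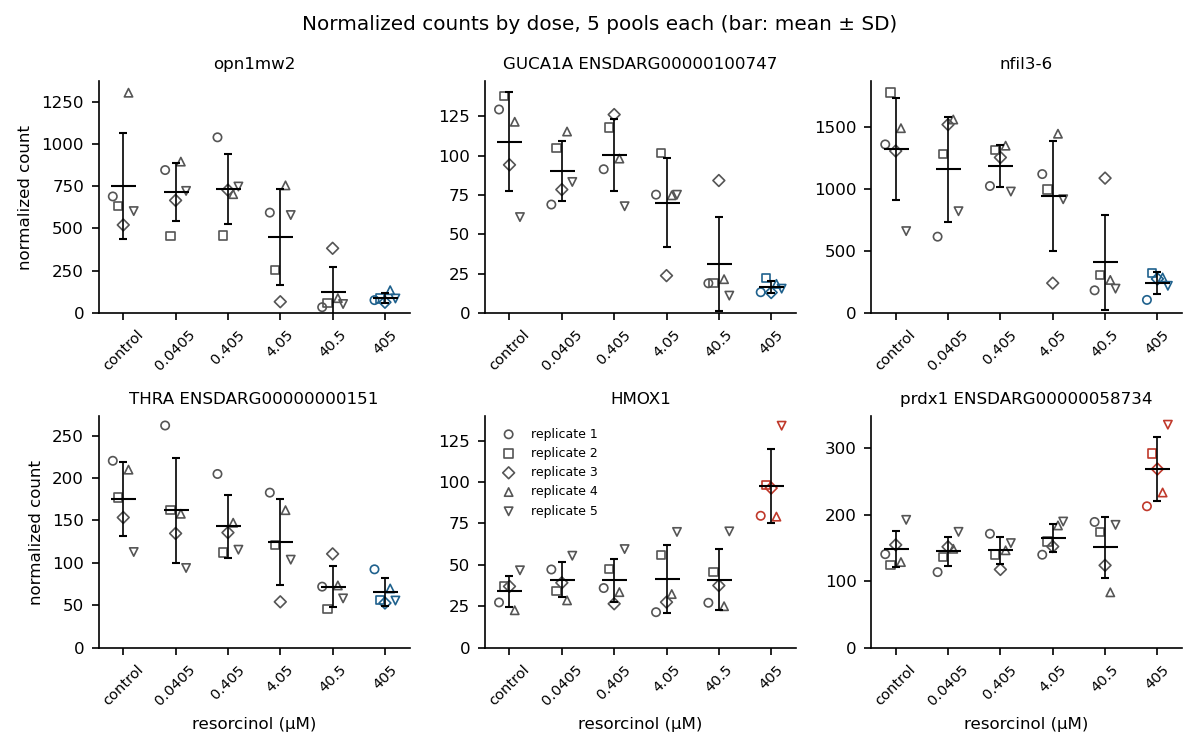
Normalized count (vertical axis, from 0) in the control and at each resorcinol dose in µM for 6 genes, 1 symbol per replicate number, with the mean ± SD of 5 pools. opn1mw2, GUCA1A ENSDARG00000100747, nfil3-6 and THRA ENSDARG00000000151 were low at 40.5 µM except in replicate 3, where they were low at 4.05 µM instead. HMOX1 and prdx1 stood near their controls up to 40.5 µM.

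The list of drug metabolism and transport genes gave 3 rises and 0 falls among 71 tested genes (4.23%, against 0.327% of all genes tested). Their median log2 change was 0.11. At an unadjusted p under 0.05, 13 were higher and 2 lower, against 5.64% and 5.13% of all genes tested. UGT1A1, a glucuronidating enzyme whose human namesake conjugates bilirubin and phenols, had 301, 420.5, 293, 129 and 1010 in controls and 783, 557, 686, 178 and 1315 at 405 µM, higher in every pair within a wide overlap. Its rise was 1.71-fold (limma, adjusted p = 0.0126), kept in 6 of 10 fits without 1 library. The cytochrome P450 gene cyp2k6 had 4.98, 5.27, 9.53, 0 and 3.05 in controls and 8.0, 40.7, 21.4, 10.1 and 20.6 at 405 µM. It rose 4.17-fold (adjusted p = 0.0426) from this low level, and its call was kept in 2 of 10 fits. No control library of cyp2k6 reached the 10 normalized counts of the level filter. The gene was therefore tested only because of dosed libraries, and its place among the 3 rises depends on that. The related gene cyp2k18 rose 1.64-fold (adjusted p = 0.0217), a call kept in 4 of 10 fits. CYP1A1 changed by 0.25 on the log2 scale and was not called.

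The GTP cyclohydrolase gene gch2, which starts pteridine synthesis in yellow pigment cells, had 119, 217, 174, 116 and 208 in controls and 326, 380, 433, 312 and 473 at 405 µM. The groups did not overlap, and the rise was 2.35-fold (limma, adjusted p = 0.00119). It was the 1 call among the 42 tested pigment genes (2.38%, against 0.327% of all genes tested). The next, aox5, changed by 0.73 on the log2 scale, with an adjusted p of 0.0601. The melanin genes DCT and TYR changed by 0.0044 and 0.38 and were not called.

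Digestive enzymes of the exocrine pancreas were higher as a group, and 2 of 34 tested genes (5.88%) were called, against 0.327% of all genes tested. Among these was CEL ENSDARG00000017490, the bile salt-activated lipase, which had 151, 427, 413, 44.1 and 484 in controls and 391, 943, 856, 132 and 688 at 405 µM. Every pair was higher and replicate 4 was lowest in both groups. The rise was 2.18-fold (limma, adjusted p = 0.0483), kept in 2 of 10 fits without 1 library.

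Over the pancreas list the median log2 change was 0.91 and 33 of 34 genes lay above 0, beside a median of 0.0011 and 9826 of 19583 above 0 for all genes tested. The genes share the cells they come from and are not independent. Their summed normalized count was 12574, 25510, 29784, 6414 and 42572 in controls and 39708, 45192, 49279, 12783 and 54908 at 405 µM, higher in 5 of 5 pairs by 1.29- to 3.16-fold. The spread between replicate numbers exceeded the change within a pair. The median was 0.74 to 1.03 without each replicate number in turn, and -0.02 at 40.5 µM. Single pools at lower doses also lay far from the control of their number, in both directions. The sums of replicates 1 to 5 were 17544, 31355, 26422, 2061 and 58434 at 40.5 µM. At 0.405 µM they were 25205, 29502.5, 47723, 2973 and 26245.

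Lens genes had a median log2 change of 0.99, whose size rested on pair 1. The medians of pairs 1 to 5 were 3.69, 0.09, 0.64, 0.55 and -0.12. Of 53 tested genes 49 lay above 0, and 0 were called, against 0.327% of all genes tested. At an unadjusted p under 0.05, 34 were higher, against 5.64% of all genes tested. The lens genes share a tissue and are not independent. The summed normalized count was 17164, 136798, 71604, 105242 and 230117 in controls and 239246, 146623, 115413, 143999 and 205782 at 405 µM. Control replicate 1 lay far under the other controls, while pair 5 went down. The replicate 1 sums at 40.5, 4.05, 0.405 and 0.0405 µM were 31600, 38499, 58964 and 125692, all above that control. Without the libraries of number 1 the median was 0.26, with 49 of 53 genes above 0. It was 1.06 to 1.27 without each of the other numbers.

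**Figure D4:**
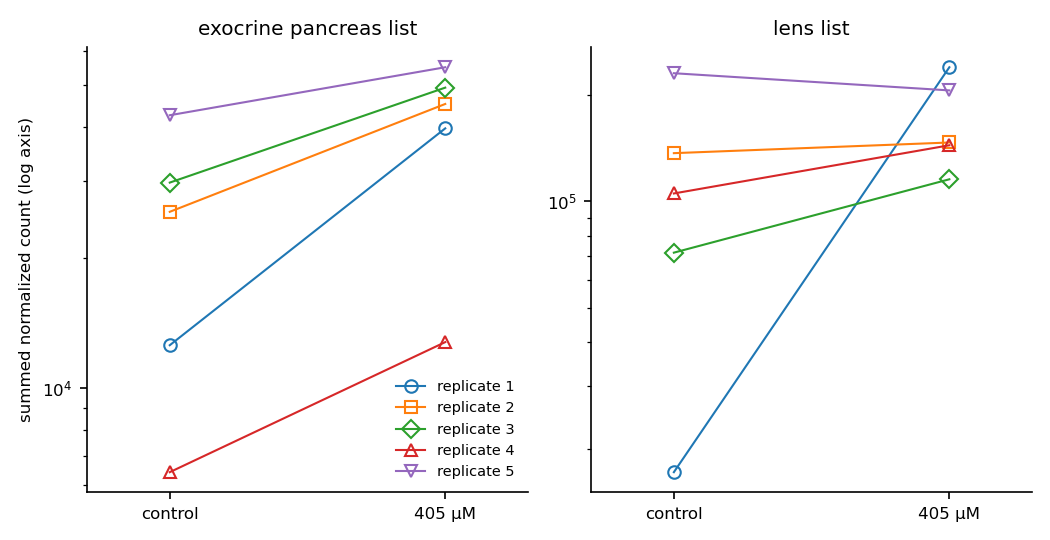
Summed normalized count (vertical log axis) of the exocrine pancreas and lens lists in each control library and the 405 µM library of the same replicate number, joined by a line. The pancreas sum was higher in 5 of 5 pairs, and the lens sum of pair 1 went from 17164 to 239246.

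Several of the larger falls were in genes of no list. FHL2 ENSDARG00000003991, a LIM domain protein, had 69.7, 113, 84.7, 66.8 and 115 in controls and 13.6, 31.0, 21.4, 21.9 and 23.7 at 405 µM. STXBP4, whose mammalian protein binds syntaxin, had 90.8, 112, 87.9, 129 and 67.1 in controls and 12, 38.0, 33.6, 38.7 and 21.6 at 405 µM. Neither gene overlapped with its controls, and the falls were 3.91- and 3.48-fold (limma, adjusted p = 0.00216 and 0.0102).

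The uncharacterised gene si:ch211-276a17.5 had 315, 313, 305, 463 and 207 in controls and 120.0, 111, 93.3, 144 and 67.0 at 405 µM. It fell 2.98-fold without overlap (limma, adjusted p = 0.0019). Lower and less steady values came from pak6b, a kinase gene, with 39.8, 29.5, 18, 29.8 and 40.7 in controls and 8.80, 5.31, 13.0, 7.58 and 24.7 at 405 µM. C20H6orf58 ENSDARG00000095751 had 13.7, 34.8, 34.9, 3.58 and 87.4 in controls and 2.80, 7.08, 10.7, 3.37 and 22.7 at 405 µM. Both overlapped with their controls, with falls of 2.76- and 2.90-fold (adjusted p = 0.0312 and 0.0483) that were kept in 3 and 1 of 10 fits. The remaining lower genes fell between 1.32-fold in oxr1a, named for oxidation resistance, and 2.07-fold in the palmitoyltransferase zdhhc8a. They included the sorting nexin SNX8 ENSDARG00000078057 (2.05-fold), the fatty acid-binding protein fabp4b (1.95-fold), the kinase subunit PIK3R3 (1.63-fold), the ephrin EFNA1 ENSDARG00000030326 (1.5-fold), the myosin MYO5B (1.45-fold), and the transcription factors zeb2a (1.37-fold) and zbtb16b (1.33-fold). Calls were kept in 1 of 10 fits for EFNA1, in 2 for oxr1a, fabp4b, MYO5B and zeb2a, and in 3 for zbtb16b. PIK3R3 kept its call in 6, zdhhc8a in 8 and SNX8 in 10.

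Among the rises outside the lists, the uncharacterised gene si:dkey-61n16.5 had 265, 322, 310, 495 and 228 in controls and 744, 882, 737, 1324 and 459 at 405 µM. Every pair was higher although the groups overlapped, a 2.5-fold rise (limma, adjusted p = 2.67e-04). The membrane protein gene tmem130 had 17.4, 25.3, 21.2, 13.1 and 25.4 in controls and 34.8, 38.9, 42.8, 32.0 and 43.3 at 405 µM, a 1.87-fold rise without overlap (adjusted p = 0.0116). The remaining rises were between 1.29- and 1.61-fold. They included the lipase LIPG (1.56-fold), BSCL2 ENSDARG00000025912 (1.52-fold), whose human namesake acts in lipid droplet formation, the mitochondrial nucleotide carrier SLC25A33 (1.4-fold) and the arginase ARG2 (1.4-fold). ARG2 and SLC25A33 did not overlap with their controls, and they kept their calls in 3 and 4 of 10 fits. LIPG kept its call in 4 of 10 and BSCL2 in 8.

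**Figure D5:**
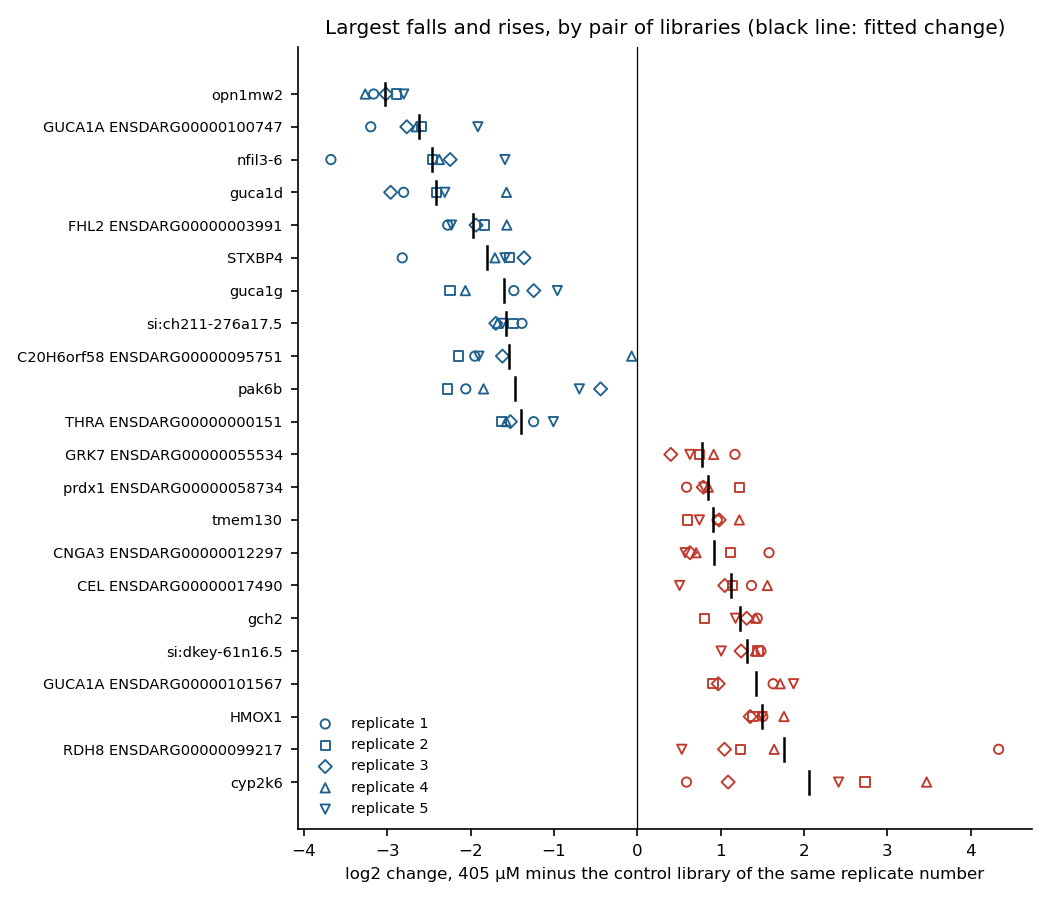
Log2 change between the 405 µM library and the control library of the same replicate number (horizontal axis) for 11 of the 12 largest falls and 11 of the 12 largest rises with all 5 pairs on 1 side, 1 symbol per replicate number and a line at the fitted change. The pairs of opn1mw2 lie between -3.26 and -2.80, while RDH8 ENSDARG00000099217 has 1 pair at 4.34.

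The 40.5 µM libraries, which share the controls with the 405 µM comparison, give the members' values at a lower dose. At 40.5 µM 13 genes (0.0664%) were called, 9 of them among the 30 genes lower at 405 µM and 1 among the 34 higher. The median log2 change at 40.5 µM was -0.79 over the 30 lower genes and 0.30 over the 34 higher ones. Without the 40.5 and 4.05 µM libraries of replicate 3, 45 genes were called at 40.5 µM, 17 of them among the 30 and 3 among the 34. The medians were then -1.01 and 0.38. These 2 libraries were singled out by their values in those 30 genes, so larger falls without them follow from the choice. The fitted changes at 40.5 µM were -3.10 for opn1mw2, -2.09 for GUCA1A ENSDARG00000100747, -1.98 for nfil3-6 and -1.29 for THRA ENSDARG00000000151. Without those 2 libraries they were -3.71, -2.55, -2.37 and -1.5. With the libraries of number 1, 2, 4 or 5 left out in every group, 0 genes were called at 40.5 µM, and 3 to 9 were without 1 control library. At 4.05 µM the medians were -0.30 and 0.14 (-0.14 and 0.13 without those 2 libraries), at 0.405 µM -0.07 and -0.00090, and at 0.0405 µM -0.11 and 0.06.

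In the fit of all 30 libraries, the contrast of 405 with 40.5 µM uses no control value, though its spread comes from all of them. It reuses the 405 µM libraries that made the calls. It called 2 genes (0.0102%), and both were higher at 405 µM; with only the groups compared, 0 were called. HMOX1 had 27.2, 45.9, 37.6, 25.1 and 70.23 at 40.5 µM, where the control range was 22.7 to 46.8, and the log2 difference between the doses was 1.3 (limma, adjusted p = 0.00199). prdx1 ENSDARG00000058734 had 189, 174, 124, 83.3 and 185 at 40.5 µM, with a difference of 0.87 (adjusted p = 0.0448). Without the 2 libraries of replicate 3 the HMOX1 call remained (adjusted p = 0.00953), and that of prdx1 did not (0.19). In that fit, control values enter the contrast through the replicate block. Both calls were among the higher genes; of the lower ones, opn1mw2 differed by 0.07 (SE 0.48) and GUCA1A ENSDARG00000100747 by -0.53 (SE 0.35), and without those 2 libraries by 0.68 and -0.07.

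Leaving out those 2 libraries lowered the adjusted p at 405 µM for 56 of the 64 genes and raised it for 8. The 2 libraries were singled out by their values in the genes called lower at 405 µM. Leaving them out shrinks the residual spread of those genes by the choice itself. Lower adjusted p-values are therefore no separate support for the calls. The limma adjusted p without the 2 libraries was 8.17e-10 for opn1mw2, 3.38e-10 for GUCA1A ENSDARG00000100747, 5.51e-09 for nfil3-6, 1.34e-07 for THRA ENSDARG00000000151 and 1.66e-05 for HMOX1. All 64 genes were called without them, among 80 in all, 40 in each direction.

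The remaining lists held 0 calls in either direction in the paired fit, against 0.327% of all genes tested. At that share, lists of this length are too short for 0 calls to set them apart from all genes. They cover liver, intestine, cholesterol synthesis, cell cycle, muscle, heart, inflammation, red blood cells, macrophages, neutrophils, neurons, glia, hair cells, olfactory neurons, skin keratins, matrix, ionocytes and kidney, mitochondrial respiration and the estrogen response. Their median log2 changes ran from -0.17 for hair cells to 0.25 for intestine. Of 33 tested hair cell genes 7 were lower and 1 higher at an unadjusted p under 0.05, and of 40 skin keratin genes 6 were lower and 1 higher, against 5.13% lower and 5.64% higher among all genes tested. The summed level of each of these lists was lower in 5 of 5 pairs. Of 44 intestinal genes 15 were higher and 4 lower at that level. The summed level of the mitochondrial list was 1887871 in 405 µM replicate 1 and 685276 to 1144810 in the other 405 µM libraries. The skin markers krt4, krt5 and cyt1 had a median of -0.21, and the neutrophil markers matched no gene of the table.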

How the data were processed

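The deposited values of signal are normalized counts per gene, made by the authors by dividing each library's reads by 1 factor; values divided by the smallest step were whole reads for 100% of entries, within a tolerance of 0.1. cutadapt, STAR, DESeq2 and the build GRCz11 are named in the submitters' processing notes. The strand setting of the counting is not given in the sources used here, so overlapping antisense genes cannot be told apart. Gene symbols came from a table of gene IDs, which named 25126 of 27488.

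Genes with at least 10 normalized counts in at least 5 of the 30 resorcinol libraries were tested (19583; 7905 lay under the filter). log2(value + 1) was fitted with limma 3.58.1 in R 4.3.3 (trend on) over all 30 libraries, with group means and the replicate number as a block, and p-values were adjusted by Benjamini-Hochberg over all genes tested. Fold changes are on the log2(value + 1) scale and understate those of low genes. edgeR 4.0.16 and DESeq2 1.42.0 on the recovered reads were alternatives. Replicate numbers were taken to pair libraries because same-number control and 405 µM libraries deviated together (correlations 0.553 to 0.791; highest between different numbers, 0.398) and the comparison was defined as paired. Nothing says whether a number marks a clutch, plate or day, and the p-values reflect variation among pools, which may be technical. The design foresaw raw counts, and limma was used because the unit is a normalized one.

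The members and gene lists were chosen with earlier results of these data known. Named in full were the 12 largest falls and 12 largest rises among called genes with all 5 pairs on 1 side, and members of the opsin, activator, nfil3 and thyroid families. A few genes that meet these rules are not reported here. Uncalled list members named beside called ones outside these families were chosen after their values were seen. The scripts were tested on simulated data. No 2 libraries of the control group or of the 405 µM group agreed within counting noise.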

Additional observations from a re-analysis of the deposited data

Results flagged for a closer look

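In 10 of 162 groups of 5 values, 1 library lay far from the other 4, by a gap of over 0.71 of the group's range (on the log2 scale for genes); chance gives about 1 in 20 such groups. Replicate 1 at 405 µM accounted for 4 of them. It held 30.7 M reads, against 8.98 to 12.1 M in the others. It also held the lowest normalized counts at 405 µM of SPHKAP (191, others 294 to 320.3), CNTNAP5 ENSDARG00000073920 (12.4, others 37.9 to 47.4) and oxr1a (355, others 632 to 707).

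Among the controls, replicate 4 was high in PDC ENSDARG00000017634 (3275, others 1366 to 1645) and opn1lw2 (4008, others 1582 to 2005). Replicate 1 was low in zeb2a (77.1, others 118 to 139) and RDH8 ENSDARG00000099217 (0, others 14.8 to 20.3). Replicate 5 was low in LIPG (114, others 203 to 250) and zbtb16b (124, others 217 to 247).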

How the results depend on the processing

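Over 61 called genes, 0 values changed sign under other settings; 503 of 603 stayed called, as did 462 of 915 with libraries left out. Without the replicate block 6 genes were called at 405 µM (1 higher, 5 lower), 0 between the doses and 1 at 40.5 µM; the higher share of calls went from 53.1% to 16.7%. With DESeq2 128 were called (74 higher, 54 lower), 21 between doses and 26 at 40.5 µM. edgeR called 3 at 40.5 µM. With only the groups compared, 141 were called (77 higher, 64 lower, 51 of the 64 among them), 0 between doses and 0 at 40.5 µM. No level filter left 1 between doses. Without the 40.5 and 4.05 µM libraries of replicate 3, 1 gene was called between doses and 45 at 40.5 µM. Leaving out 1 library or 1 replicate number gave 11 to 83 calls, 3 to 57 higher, 6 to 30 lower, 0 to 2 between doses and 0 to 42 at 40.5 µM. The causes were not tested.

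Signs turned in 3 genes that were not called. DIO1 changed by 0.0011 after quantile normalization and by -0.18 to 0.12 with libraries left out. The ranges were -0.12 to 0.019 for THRB and -0.028 to 0.20 for opn1sw2. Genes with 10 normalized counts in fewer than 5 libraries, among them TSHB and opn1mw3, were not tested.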
